A study of Mus musculus with 9 samples.

Results

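A set of 10 genes of the skeletal muscle programme that lies downstream of Six-family and Eya proteins were followed in 66cl4 cells, a mouse mammary carcinoma line described as triple negative. The members are Myf5, Myf6, Myod1, Myog, Mef2a, Mef2c, Mef2d, Pax3, Pax7 and Des, and all 10 were found by symbol among the 55418 rows of the count table. The study asked what lowering Eya3 by short hairpin RNA does to the cells. SCR cells carried a scrambled hairpin, and shEya3_KD1 and shEya3_KD2 cells each carried 1 of 2 hairpins named for Eya3, with 3 biological replicates in each of the 3 groups. All 9 cultures, controls included, had been transduced and were held in puromycin at 2.5 µg/ml in a medium with 10% calf serum. The sequences of the hairpins were not used here, and the labels do not say whether a group is a clone or a mixed culture.

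In the embryo, Six-family homeodomain proteins bind regulatory DNA and recruit Eya proteins, which activate transcription and carry a phosphatase domain. Together with Pax3 they switch on the myogenic basic helix-loop-helix (bHLH) factors, in an order that runs from Myf5 and Myod1, which commit cells to muscle, to Myog and Myf6, which drive their differentiation. MEF2 factors then act with the bHLH factors on muscle promoters, and desmin, the product of Des, is the intermediate filament of muscle cells. Outside muscle, Mef2a and Mef2d are broadly expressed, and none of the bHLH factors is a usual gene of mammary epithelium.

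The promoters of Myf5 and Des are shown because these were the members that fell most, and that of Myog because it holds the textbook Six-family site of this pathway. Each is the stretch of 250 bases before the RefSeq start (GRCm38.p6, the sequence of mm10), written 5′ to 3′ on the gene's strand. Capitals mark E-boxes (CANNTG, the site of bHLH factors) and the MEF3 letters TCAGGTT bound by Six-family proteins.
Myf5, chr10:107486135-107486384, minus strand: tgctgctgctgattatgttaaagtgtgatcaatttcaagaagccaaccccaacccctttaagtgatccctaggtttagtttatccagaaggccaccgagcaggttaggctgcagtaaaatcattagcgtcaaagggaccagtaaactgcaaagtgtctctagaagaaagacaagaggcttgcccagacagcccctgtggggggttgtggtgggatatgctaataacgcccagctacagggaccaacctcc
Des, chr1:75360042-75360291, plus strand: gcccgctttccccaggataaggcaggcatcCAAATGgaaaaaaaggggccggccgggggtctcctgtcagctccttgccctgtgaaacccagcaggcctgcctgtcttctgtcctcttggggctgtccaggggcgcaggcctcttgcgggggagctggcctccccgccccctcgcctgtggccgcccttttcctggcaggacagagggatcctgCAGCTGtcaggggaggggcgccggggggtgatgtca
Myog, chr1:134289754-134290003, plus strand: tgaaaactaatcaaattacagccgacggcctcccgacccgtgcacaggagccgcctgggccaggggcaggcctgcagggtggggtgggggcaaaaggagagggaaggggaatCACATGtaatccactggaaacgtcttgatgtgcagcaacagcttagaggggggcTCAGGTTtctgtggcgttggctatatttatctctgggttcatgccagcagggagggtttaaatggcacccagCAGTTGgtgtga
The Myf5 window held neither motif. The Des window held 2 E-boxes, starting at positions -220 and -36 from the start, the latter reading CAGCTG. In the Myog window TCAGGTT began at position -84, between E-boxes at -138 and -12. Both strands were searched, and no motif shown overlapped another. Over all 32851 promoter windows of this length, 66.2% held an E-box, 3.49% the MEF3 letters and 2.92% a MEF2 site. None of these 3 windows held the MEF2 letters searched, YTAWWWWTAR (Y is C or T, W is A or T, R is A or G). The Myog window does hold ctatatttat, which differs from those letters only in its last base. A match is a description of the letters, not of binding. RefSeq windows were at hand for 7 of the 10 members, not for Myf6, Myod1 or Pax3. Among the windows not shown, 1 of Mef2c also held the MEF3 letters, on the opposite strand and beginning at position -248. That window held E-boxes at -234 and -100.

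Library totals lay between 27758862 and 52691960 counts, and 15914 genes had enough reads to test. The targeted gene, Eya3, stood at 68.1, 79.0 and 71.6 CPM (counts relative to the scaled library total) in the SCR libraries. It stood at 24.9, 21.5 and 22.9 CPM in shEya3_KD1 and at 38.6, 39.8 and 34.1 CPM in shEya3_KD2, so that every hairpin library lay below every SCR library. Of the epithelial markers, Krt8 was abundant (679 ± 20.8 CPM in SCR, SD, n = 3), Epcam had no counts and Krt18 was at 0.0277 ± 0.0103 CPM. Of the receptor genes that the term triple negative refers to, Pgr had no counts, while Esr1 was at 7.11 ± 0.294 and Erbb2 at 53.6 ± 1.95 CPM in SCR. These are RNA levels and give no level of receptor protein. Summed endothelial markers lay at 4.25 to 5.12 CPM in SCR, 2.80 to 3.88 in shEya3_KD1 and 2.14 to 2.81 in shEya3_KD2, and summed macrophage and lymphocyte markers at 1.55 to 1.87, 1.64 to 1.87 and 0.566 to 0.78 CPM. Single genes moved in opposite directions within these sums. Cdh5 was at 3.72, 0.264 and 2.12 CPM in the 3 groups and Emcn at 0.0131, 2.24 and 0 CPM. Ptprc was at 0.64, 0.203 and 0.0366 CPM and Cd3g at 0.488, 1.01 and 0.292 CPM. Of 5 tested mammary epithelial markers 3 rose and 1 fell with shEya3_KD1, and 4 rose with shEya3_KD2. Over all tested genes 50.3% were called with shEya3_KD1 and 45.3% with shEya3_KD2. The part of these markers in the members' changes was not tested.

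Of the 4 bHLH factors, Myf5 alone was clearly present, and it was detected in SCR cells only. Its libraries held 93, 83 and 72 counts in SCR, or 1.84, 1.63 and 1.73 CPM (mean 1.73 ± 0.105 SD, n = 3). All 6 hairpin libraries held 0 counts. Myf5 (mm10, chromosome 10, 107482908 to 107486134, minus strand) was thus at least 67.9-fold lower in shEya3_KD1 and at least 69.8-fold lower in shEya3_KD2, by a floor of 3 counts over each group. The adjusted p of the edgeR test (quasi-likelihood, Benjamini-Hochberg over all genes) was 1.46e-07 with shEya3_KD1 and 3.45e-07 with shEya3_KD2. Myf5 passed the filter on low counts only through its SCR level, so these p-values are a description and not support. In a bulk culture, fewer cells that express a gene and less RNA per cell cannot be told apart. Among tested genes, 4 had no count in any of the 6 hairpin libraries, and Myf5 had the highest SCR level of these, followed by Mmp1b at 1.24 CPM, Ldb2 at 0.593 and Cntn5 at 0.328.

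The paralogs of Myf5 were at or near 0 counts, also in SCR cells. Myf6, a late factor whose gene lies 6.72 kb from Myf5 on the same strand, had 3, 1 and 2 counts in the SCR libraries and 1 count in each hairpin group. The SCR level was 4.93 times that of shEya3_KD1 (95% counting interval 0.598 to 227) and 5.07 times that of shEya3_KD2 (0.615 to 233), so no difference was detectable at this depth. Myod1, the muscle commitment factor, had 0 counts in all 9 libraries, which allows up to 0.021 CPM in SCR, 0.0255 in shEya3_KD1 and 0.0248 in shEya3_KD2. Myog had 1 count in all, in shEya3_KD1. These 3 genes were too low to test, and intervals and floors cover counting error only. Between the transcripts of Myf5 and Myod1 the longest identical run is 26 bases.

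The genes on either side of Myf5 were looked at after its loss had been seen. Ptprq, a receptor phosphatase 30.9 kb from Myf5, went from 2.19 CPM in SCR to 0.0478 in shEya3_KD1 and 0.662 in shEya3_KD2 (log2 fold changes -5.34 ± 0.37 SE and -1.72 ± 0.23, adjusted p = 1.56e-08 and 3.01e-05 in edgeR). Otogl, at 274 kb, went from 0.924 to 0.141 and 0.333 CPM (log2 fold changes -2.65 and -1.44, adjusted p = 2.21e-06 and 0.000247). On the other side Acss3, a short-chain acyl-CoA synthetase at 359 kb, went from 9.18 CPM to 0.0161 CPM with shEya3_KD1 but to 21.8 CPM with shEya3_KD2 (log2 fold changes -8.85 ± 0.27 and 1.25 ± 0.10). Ccdc59, beyond Acss3 at 1640 kb, went from 48.6 to 37.8 and 36.9 CPM (log2 fold changes -0.36 and -0.40, adjusted p = 0.00027 and 0.000197). Of these 4 neighbours, Ptprq, Otogl and Ccdc59 fell with both hairpins and Acss3 went opposite ways. Over all tested genes 26.2% were called lower with shEya3_KD1 and 22.3% with shEya3_KD2. Whether the region as a whole took part was not tested.

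**Figure D1:**
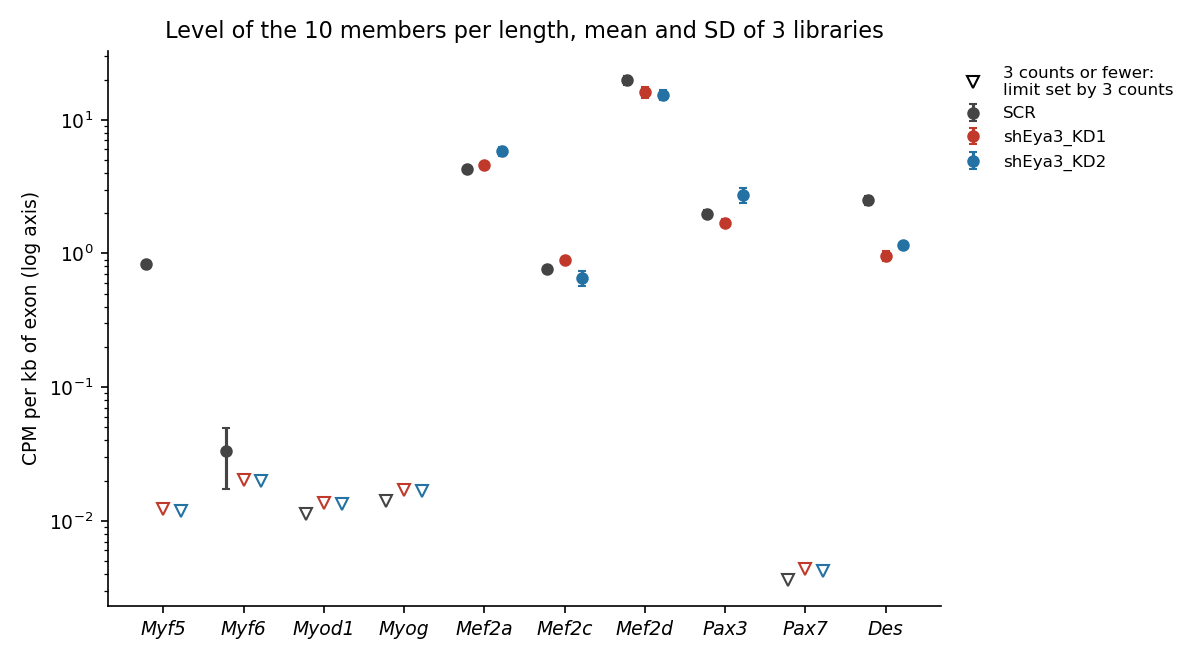
Mean level of each of the 10 members in CPM per kb of merged exon (log axis) in SCR, shEya3_KD1 and shEya3_KD2, with the SD of 3 libraries. Open triangles stand for groups with 3 counts or fewer and mark the level that 3 counts would give, so Myf5 is a point in SCR (0.832) and a limit with both hairpins.

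Pax3 and Pax7 act upstream of Myf5 in muscle precursors, and Pax3 also in the neural crest. Pax3 (chromosome 1, 78101267 to 78197134) was present in every library, at 11.7, 13.1 and 11.8 CPM in SCR and 10.9, 10.9 and 9.76 CPM in shEya3_KD1. In shEya3_KD2 it was at 15.9, 19.6 and 15.3 CPM. All shEya3_KD2 libraries lay above those of both other groups, and replicate 2, the shallowest library, was the highest. With shEya3_KD2 Pax3 rose by 0.46 ± 0.10 (SE) on the log2 scale (adjusted p = 0.00141 in edgeR), and by 0.36 without that replicate, still past the threshold. With shEya3_KD1 the log2 fold change was -0.21 ± 0.10 (adjusted p = 0.0899) and did not pass, although without shEya3_KD2 replicate 2, which bears only on the shared spread, the adjusted p was 0.0366. The hairpins differed by 0.68 ± 0.10 on the log2 scale (adjusted p = 5.37e-05). Pax7 had 1 count in all, in SCR replicate 2. Of 8 neural crest and melanocyte markers only 2, Mitf and Pmel, could be tested. Mitf, the melanocyte factor that Pax3 activates, was at 8.65 ± 0.551, 7.30 ± 0.398 and 9.20 ± 1.64 CPM in the 3 groups and was not called against SCR. Pmel, a melanosome protein, fell from 0.56 ± 0.0893 to 0.226 ± 0.0781 CPM with shEya3_KD1 (adjusted p = 0.00425) and was at 0.446 ± 0.123 CPM in shEya3_KD2 (0.288). Both were higher in shEya3_KD2 than in shEya3_KD1, as Pax3 was (adjusted p = 0.0357 and 0.0498 in edgeR). Of all tested genes 49.6% were called in that comparison. Neither marker was called higher with limma-voom, another test, or without shEya3_KD1 replicate 2 or 3 or shEya3_KD2 replicate 2. The part of these markers in the difference of Pax3 was not tested. Sox10 had 1 count in all and Tyr had 0. Pax3 reads were thus present in the 6 libraries where Myf5 had none.

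Des encodes desmin, which also marks pericytes and smooth muscle. It stood at 9.52, 8.67 and 9.97 CPM in SCR, 3.32, 3.91 and 3.60 CPM in shEya3_KD1 and 4.45, 4.50 and 4.03 CPM in shEya3_KD2. Every hairpin library was below every SCR library. The log2 fold change of Des (chromosome 1, 75360329 to 75368579) was -1.38 ± 0.11 (SE) with shEya3_KD1 and -1.12 ± 0.10 with shEya3_KD2 (adjusted p = 4.32e-08 and 8.28e-07 in edgeR), so that Des fell to 38.5% and 46.1% of the SCR mean. The libraries of the hairpins did not overlap, but their difference of 0.26 ± 0.11 missed the threshold (adjusted p = 0.0736, 95% interval of the fold 1.02 to 1.40). Speg, a kinase of striated muscle encoded 6.72 kb further along the chromosome, went from 38.7 CPM to 15.7 and 30.9 CPM (log2 fold changes -1.31 ± 0.09 and -0.33 ± 0.08, adjusted p = 6.94e-09 and 0.00457). Dnpep, on the other side at 42.3 kb, did not pass the test with either hairpin (adjusted p = 0.0923 and 0.190).

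**Figure D2:**
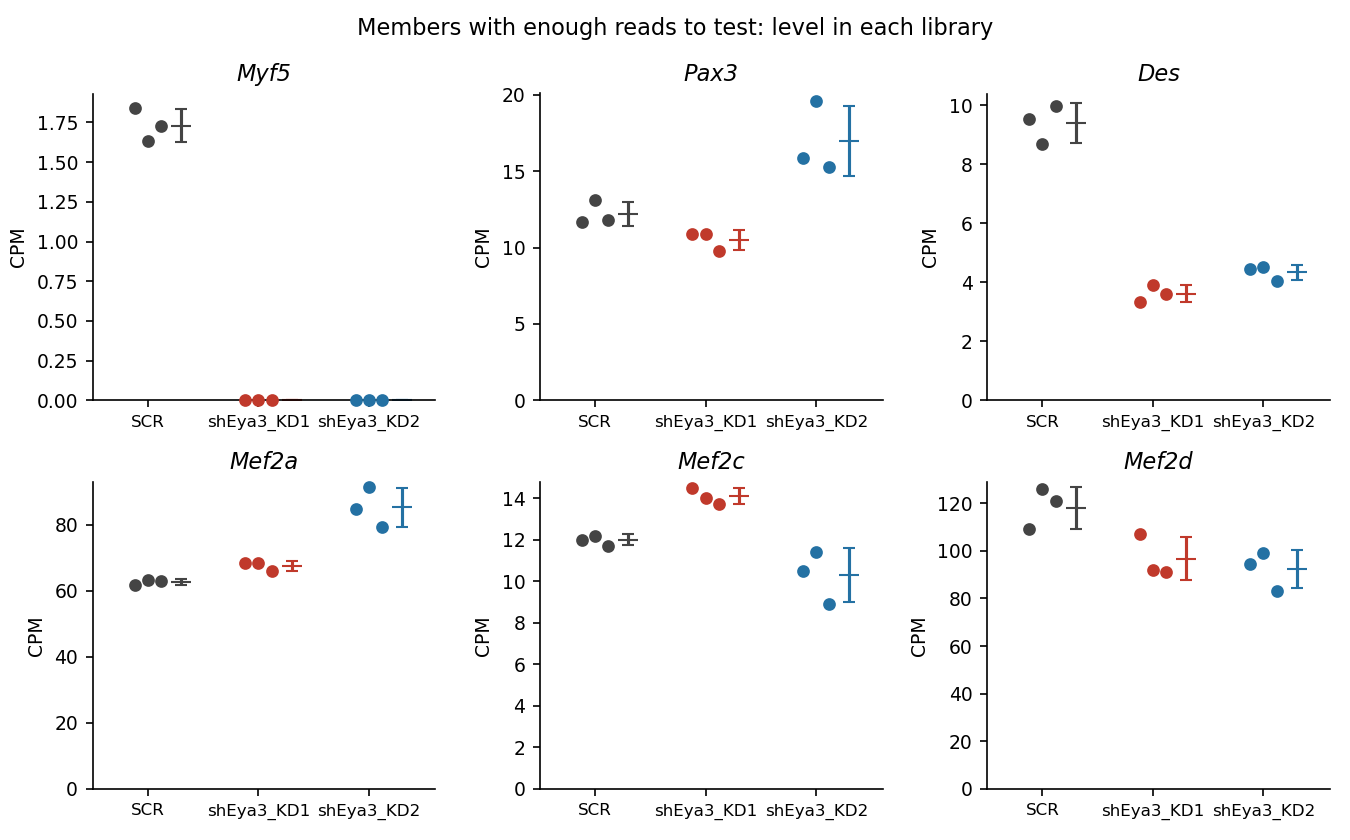
CPM of the 6 tested members in each of the 9 libraries, with the mean and SD of 3 beside the points and every axis starting at 0. Myf5 is at 0 in 6 libraries, Des lies between 3.32 and 4.50 CPM in the hairpin libraries against 8.67 to 9.97 CPM in SCR, and Pax3 is highest in shEya3_KD2.

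Most other markers of mural or smooth muscle cells were near 0. Of that list of 10 genes 7 were too low to test, among them Acta2, Tagln, Myh11 and Cnn1, which had 13, 8, 5 and 14 counts summed over the 3 SCR libraries. The summed level of the list was 138 to 155 CPM in SCR, 148 to 168 in shEya3_KD1 and 171 to 194 in shEya3_KD2, most of it Smtn (147 ± 8.77 CPM in SCR). Of the 3 tested genes 1 rose with shEya3_KD1 and 3 with shEya3_KD2, where 24.1% and 23% of all tested genes rose. Pdgfrb, a receptor of pericytes and fibroblasts, rose from 0.605 ± 0.145 to 11.8 ± 1.65 and 2.77 ± 0.961 CPM, opposite to Des. With shEya3_KD2 alone, Myocd rose from 0.0699 ± 0.0491 to 0.652 ± 0.171 CPM and Smtn to 179 ± 10.7 CPM. Their part in the change of Des was not tested.

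Mef2a, Mef2c and Mef2d, MADS-box factors that partner the bHLH factors, changed by less than 1.5-fold and in different directions. Mef2d (chromosome 3, 88142372 to 88172086) was at 109, 126 and 121 CPM in SCR, 107, 91.9 and 91.0 CPM in shEya3_KD1 and 94.3, 98.9 and 83.3 CPM in shEya3_KD2. Every hairpin library was below every SCR library. It fell with both hairpins, at log2 fold changes of -0.29 ± 0.09 (SE) and -0.36 ± 0.09 (adjusted p = 0.00988 and 0.00296 in edgeR), and the hairpins did not differ beyond their spread (fold 0.952, 95% interval 0.848 to 1.07).

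Mef2a (chromosome 7, 67231163 to 67372858) was at 61.7, 63.2 and 62.9 CPM in SCR and 68.3, 68.4 and 65.8 CPM in shEya3_KD1, a difference that did not pass the test (log2 fold change 0.11 ± 0.07, adjusted p = 0.184). It rose with shEya3_KD2, to 84.7, 91.4 and 79.4 CPM (0.44 ± 0.07, adjusted p = 6.59e-05), and was 0.34 ± 0.07 higher there than in shEya3_KD1 (adjusted p = 0.000585). Replicate 2 was again the highest of the shEya3_KD2 libraries, as it was for Mef2c, Mef2d and Des. Without that replicate the log2 fold change of Mef2a was 0.39.

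Mef2c (chromosome 13, 83504034 to 83667080) was the least certain. It was at 12, 12.2 and 11.7 CPM in SCR, 14.5, 14 and 13.7 in shEya3_KD1 and 10.5, 11.4 and 8.90 in shEya3_KD2, with no overlap between the groups. With shEya3_KD1 it rose by 0.23 ± 0.09 on the log2 scale (adjusted p = 0.0441 in edgeR). That call was lost without any 1 of the 3 SCR or 3 shEya3_KD1 libraries, and without shEya3_KD2 replicate 1 (adjusted p 0.0717 to 0.143). With shEya3_KD2 its log2 fold change was -0.23 ± 0.09 (adjusted p = 0.0542), which passed without shEya3_KD2 replicate 2 (-0.30, adjusted p = 0.0149) and shrank to -0.13 without shEya3_KD2 replicate 3 (adjusted p = 0.246). The difference between the hairpins, -0.46 ± 0.09, was called (adjusted p = 0.000756). Mef2b, the remaining MEF2 gene, was at 0.285 ± 0.0629, 0.421 ± 0.104 and 0.223 ± 0.0984 CPM. The genomic spans of Mef2b, Mef2a and Mef2d overlap those of other tested genes. These are Borcs8 for Mef2b, Lysmd4 and Gm44667 for Mef2a, and 1700113A16Rik for Mef2d. Counts per gene do not show where reads lie, and the strand setting of the counts is not given in the sources used here.

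**Figure D3:**
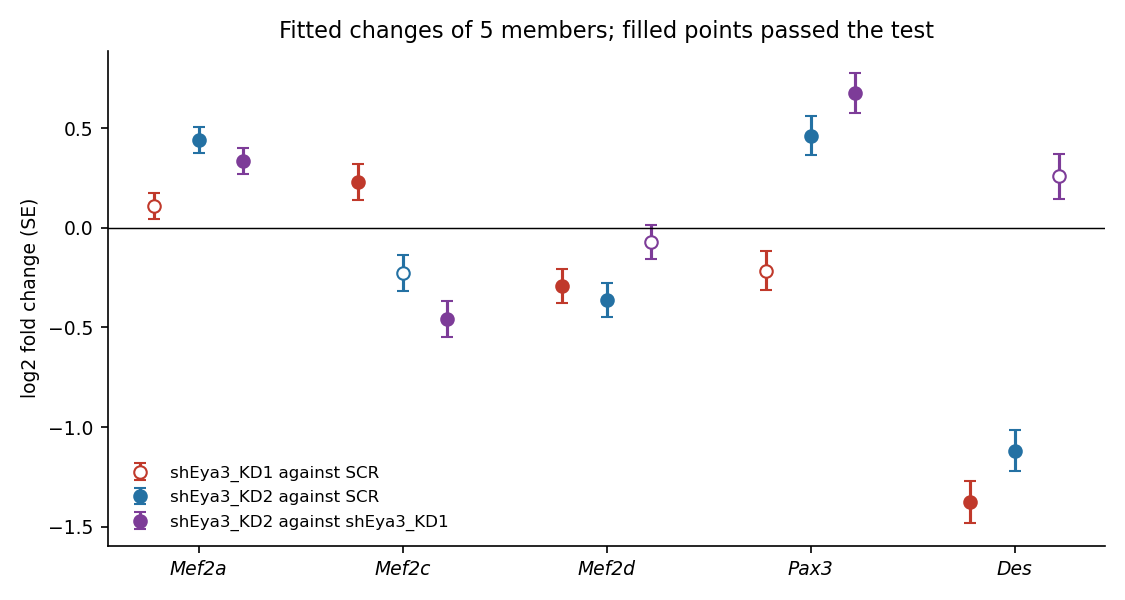
Fitted log2 fold changes (points) with their standard errors (bars) for Mef2a, Mef2c, Mef2d, Pax3 and Des in the 3 comparisons; filled points passed an adjusted p of 0.05. Des is the lowest with both hairpins (-1.38 and -1.12), and Mef2c and Pax3 have fitted values of opposite sign with the 2 hairpins; Myf5 is left out because its fold is only bounded.

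Per kb of merged exon, Mef2d was the most abundant member in every group, at 19.8 ± 1.47 CPM per kb in SCR, followed by Mef2a at 4.27 ± 0.0531, Des at 2.50 ± 0.177 and Pax3 at 1.98 ± 0.126. Myf5 (0.832 ± 0.0502) and Mef2c (0.762 ± 0.0164) came last among the tested members and were the closest neighbours in SCR. These levels put Mef2d at percentile 82.0 of tested genes and Myf5 at percentile 24.4. In both hairpin groups Pax3 stood above Des. Des (0.961 ± 0.0781) and Mef2c (0.894 ± 0.0239) did not differ beyond their spread in shEya3_KD1. Merged exons include those of rare isoforms, so levels of genes with long alternative exons such as Mef2a and Mef2c (14.7 and 15.7 kb) may understate the level per length.

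The make-up of the MEF2 pool moved with these changes. Mef2d made up 77.7%, 80.0% and 79.4% of the summed MEF2 level per kb in the SCR libraries, 75.1%, 72.4% and 73.2% in shEya3_KD1 and 70.5%, 69.7% and 69.6% in shEya3_KD2, so the groups did not overlap. Mef2a made up 17.1% ± 0.816 (SD, n = 3), 21.0% ± 1.33 and 26.4% ± 0.617. The ratio of Mef2a to Mef2d per kb was 0.216 ± 0.0137, 0.286 ± 0.0232 and 0.377 ± 0.0112, with a 2-sided exact permutation p of 0.1 for each pair of groups, the smallest that 3 libraries against 3 can give (0.15 adjusted over 9 such tests). The summed MEF2 level was 25.0 ± 1.48, 21.9 ± 1.66 and 22 ± 1.88 CPM per kb.

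In the count over members, 4 of the 6 that could be tested were called with shEya3_KD1 (1 higher and 3 lower), where 50.3% of all tested genes were called (24.1% higher and 26.2% lower). With shEya3_KD2 5 of 6 were called (2 higher and 3 lower), against 45.3% of all tested genes (23% higher and 22.3% lower). Between the hairpins 3 of 6 were called (2 higher and 1 lower in shEya3_KD2), against 49.6% (27% higher and 22.5% lower). The libraries of the compared groups did not overlap for 6 of 6 members with either hairpin, where 59.3% and 54.4% of all tested genes did not overlap, and for 4 of 6 between the hairpins, where 54.3% did not. Myf5 entered the test only through its SCR level, so these counts are a description and not support. The comparisons with SCR share the same 3 control libraries.

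Of the 9 tested Eya, Six-family and Dach genes, shEya3_KD1 cells had 3 that rose and 5 that fell, Eya3 among the latter. In shEya3_KD2 cells 4 were higher and 4 lower, again with Eya3 among the lower. The shares called over all tested genes were 50.3% with shEya3_KD1 and 45.3% with shEya3_KD2. Six4, a Six-family factor of muscle precursors, was at 31.2 ± 1.74 CPM in SCR and 33.2 ± 1.44 CPM in shEya3_KD1 (adjusted p = 0.387 in edgeR), and it rose to 43.8 ± 4.86 CPM with shEya3_KD2 (adjusted p = 0.000221).

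Dimer partners and repressors of the bHLH factors formed a list of 19 genes, of which 15 were tested. With shEya3_KD1, where 50.3% of all tested genes were called, 8 rose and 4 fell (median log2 fold change 0.23 against 0.014 over all genes). With shEya3_KD2, where 45.3% were called, 5 rose and 4 fell (0.08 against -0.0044). With 1 library left out at a time these medians ran from 0.13 (without shEya3_KD1 replicate 1) to 0.28 and from 0.0022 (without SCR replicate 2) to 0.11. Id1 and Id2, inhibitors that sequester the E-protein partners of MyoD, were among the largest changes. Id2 rose from 26.5 ± 0.764 to 131 ± 1.64 CPM with shEya3_KD1 and was at 24.9 ± 2.21 CPM in shEya3_KD2. Id1 rose with both, from 27 ± 0.933 to 59.9 ± 4.59 and 44.1 ± 2.53 CPM. The E-protein gene Tcf3 fell from 193 ± 4.73 to 133 ± 11.8 CPM with shEya3_KD1 and was at 186 ± 6.79 CPM in shEya3_KD2, while Tcf12 rose from 85.8 ± 1.26 to 111 ± 9.59 and 129 ± 10.0 CPM. Bhlhe41, a repressor of MyoD activity, rose from 17.0 ± 1.81 to 31.9 ± 4.73 and 29.0 ± 1.70 CPM, and Sirt1, a deacetylase, fell from 5.08 ± 0.232 to 1.10 ± 0.164 CPM with shEya3_KD1 but rose to 6.74 ± 0.355 CPM with shEya3_KD2. The dedicated inhibitors Msc and Id4 had 0 counts throughout.

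Among 20 coactivators and repressors of MEF2 and MyoD 17 were tested. With shEya3_KD2 10 rose and 1 fell, at a median log2 fold change of 0.34 against -0.0044 over all genes. With shEya3_KD1 8 rose and 4 fell, at 0.14 against 0.014 (0.09 without shEya3_KD1 replicate 1). Of all tested genes 23% rose and 22.3% fell with shEya3_KD2, and 24.1% rose and 26.2% fell with shEya3_KD1. Hdac5, a class IIa histone deacetylase that represses MEF2, rose from 39.1 ± 3.12 to 66.8 ± 9.65 and 74.6 ± 1.93 CPM. Hdac4 was at 21.9 ± 1.93, 23.2 ± 2.77 and 33.7 ± 5.14 CPM and rose with shEya3_KD2. Hdac9, itself a MEF2 target, rose from 0.775 ± 0.183 to 3.10 ± 0.208 CPM with shEya3_KD1 and fell to 0.272 ± 0.0124 CPM with shEya3_KD2, where it was the 1 gene that fell. Smarcd3, the BAF60c subunit that works with MyoD on chromatin, rose from 0.801 ± 0.115 to 7.19 ± 0.384 and 2.76 ± 0.246 CPM. Vgll3, a cofactor of TEAD factors, fell from 35.1 ± 0.872 to 17.3 ± 1.27 CPM with shEya3_KD1 and rose to 43.6 ± 4.91 CPM with shEya3_KD2.

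MEF2 target genes went both ways, where 50.3% (shEya3_KD1) and 45.3% (shEya3_KD2) of all tested genes were called. Of 17 tested, with shEya3_KD1 7 rose and 6 fell, with a median log2 fold change of 0.28 that became -0.0016 without SCR replicate 3 and -0.04 without shEya3_KD1 replicate 1, and was 0.53 without SCR replicate 1. With shEya3_KD2 4 rose and 4 fell (median 0.09, or 0.03 without shEya3_KD2 replicate 1), and 2 rose and 3 fell without SCR replicate 1. In that comparison 2 fell without SCR replicate 3, shEya3_KD2 replicate 1 or shEya3_KD2 replicate 3. Klf4 rose from 8.49 ± 0.471 to 39.0 ± 4.45 and 31.4 ± 1.37 CPM, and Nr4a1, an orphan nuclear receptor, from 15.3 ± 1.60 to 27.8 ± 3.99 and 19.4 ± 0.348 CPM. Egr1 fell from 34.3 ± 13.5 to 3.89 ± 0.369 CPM with shEya3_KD1 and was at 19.7 ± 6.14 CPM in shEya3_KD2 (adjusted p = 0.0734 in edgeR). Ppargc1a, a coactivator of mitochondrial genes, went opposite ways, from 0.582 ± 0.133 up to 1.53 ± 0.102 and down to 0.192 ± 0.0601 CPM.

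**Figure D4:**
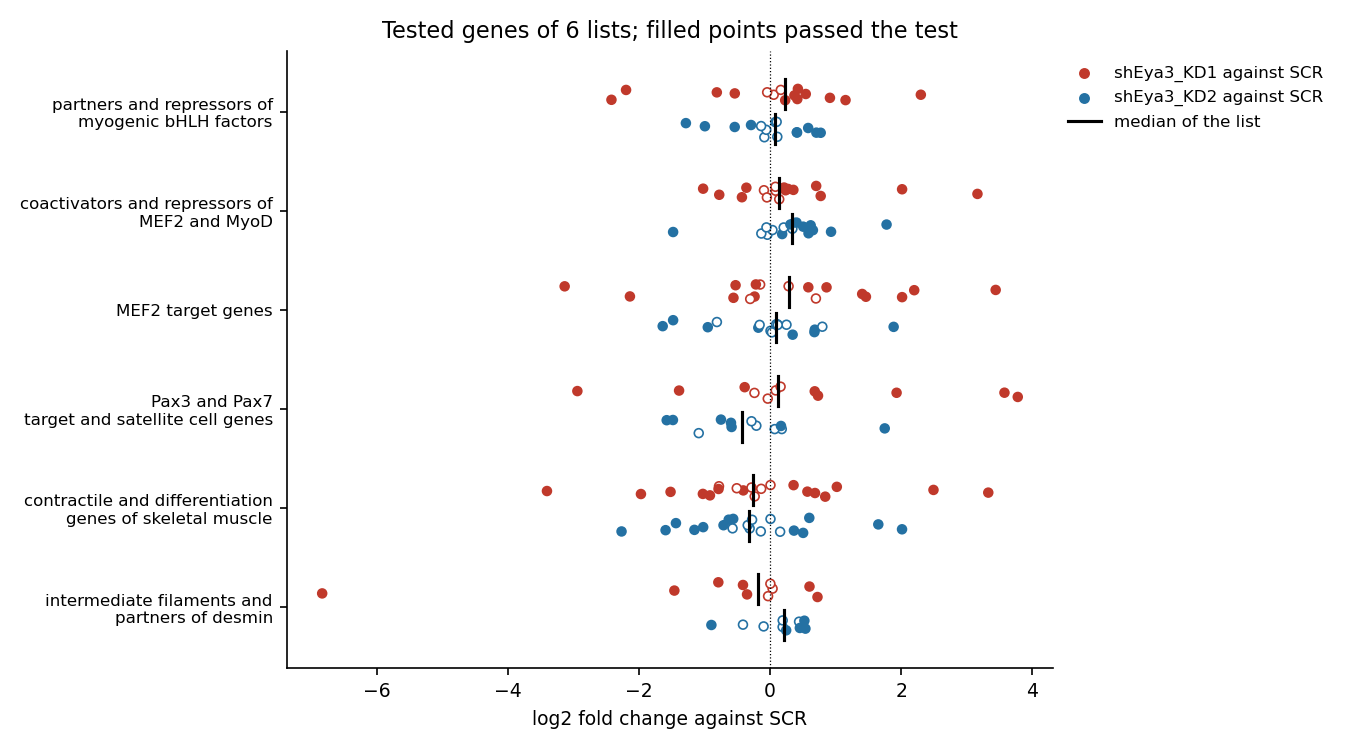
Log2 fold changes against SCR of the tested genes in 6 lists, with shEya3_KD1 above and shEya3_KD2 below in each pair of rows; filled points passed the test and black bars are medians. Every list holds genes that rose and genes that fell, and the medians lie between -0.44 and 0.34.

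Of the 25 genes of satellite cells (muscle stem cells) or downstream of Pax3 and Pax7, 12 were tested. With shEya3_KD1, where 50.3% of all tested genes were called, 5 rose and 3 fell (median 0.12). With shEya3_KD2, where 45.3% were called, 2 rose and 5 fell (median -0.44). With 1 library left out at a time the medians ran from 0.06 to 0.22 and from -0.47 to -0.20, the last of these without SCR replicate 3. Of the 2 that rose with shEya3_KD2, 1 was left without SCR replicate 1 or 3, shEya3_KD1 replicate 2, or shEya3_KD2 replicate 1 or 2. Cd34, a surface sialomucin, fell from 585 ± 20.7 to 76.3 ± 4.59 and 196 ± 1.54 CPM, and Ncam1, an adhesion molecule, from 26 ± 2.78 to 9.92 ± 1.31 and 9.35 ± 0.613 CPM. Fgfr1 rose from 2.07 ± 0.277 to 28.3 ± 4.24 and 7.08 ± 1.77 CPM. Lbx1, a homeobox target of Pax3 in migrating muscle precursors, was at 16.2 ± 2.30 and 18.2 ± 1.39 CPM in SCR and shEya3_KD1 and fell to 10.8 ± 0.885 CPM with shEya3_KD2, where Pax3 rose. Spry1, a brake on growth factor signalling, rose from 27.1 ± 1.08 to 103 ± 9.54 CPM with shEya3_KD1 and fell to 16.2 ± 1.45 CPM with shEya3_KD2.

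The contractile and differentiation genes of skeletal muscle were mostly silent in all groups. Of 48, 28 were too low to test and 5 had no count at all (Myh2, Cav3, Mymx, Mstn and Igf2). Ckm, the muscle creatine kinase, had 1, 5 and 6 counts summed over the SCR, shEya3_KD1 and shEya3_KD2 libraries. Mymk, the fusion factor, had 0, 3 and 1 counts, and Actc1, cardiac actin, 0, 6 and 1. Of the 20 tested, shEya3_KD1 gave 7 that rose and 7 that fell, where 50.3% of all tested genes were called. The second hairpin gave 5 higher and 8 lower, where 45.3% of all tested genes were called. With that hairpin 4 to 5 fell without SCR replicate 3 or shEya3_KD2 replicate 1 or 2. Medians were -0.26 and -0.33, and with 1 library left out at a time they ran from -0.40 (without shEya3_KD1 replicate 3) to -0.17 (without SCR replicate 2) and from -0.54 (without shEya3_KD2 replicate 3) to -0.32. The second median was -0.52 without SCR replicate 3 and -0.49 without SCR replicate 2. Rapsn, which clusters acetylcholine receptors at the muscle synapse, fell from 4.09 ± 0.440 to 1.41 ± 0.429 and 2.64 ± 0.192 CPM, and Myom2, an M-band protein, from 3.27 ± 0.318 to 0.311 ± 0.0712 and 1.18 ± 0.233 CPM. Myh3, the embryonic myosin, fell from 1.02 ± 0.351 to 0.581 ± 0.125 and 0.346 ± 0.147 CPM, the first of these close to the threshold (adjusted p = 0.0477 and 0.0017 in edgeR). Fst, follistatin, a secreted antagonist of myostatin and activin, rose from 3.65 ± 0.308 to 36.9 ± 1.40 and 14.7 ± 1.29 CPM. Genes of the contractile apparatus also rose. Tnni2, fast troponin I, rose from 6.44 ± 1.23 to 9.58 ± 1.13 and 9.18 ± 0.774 CPM, and Tnni1, slow troponin I, from 0.143 ± 0.0472 to 0.81 ± 0.149 CPM with shEya3_KD1. Myh7, slow myosin, rose from 0.629 ± 0.0571 to 1.02 ± 0.13 CPM with shEya3_KD1 and fell to 0.397 ± 0.117 CPM with shEya3_KD2. Ryr1, the calcium release channel, likewise rose from 0.326 ± 0.0433 to 0.598 ± 0.186 CPM, close to the threshold, and fell to 0.0592 ± 0.0505 CPM (adjusted p = 0.0421 and 0.00207 in edgeR). Ttn, titin, rose from 0.39 ± 0.104 to 1.32 ± 0.911 CPM with shEya3_KD2. Of the genes that passed at over 10 CPM in a group, Fst, Rb1 and Cdkn1a are not specific to muscle, and Dmd, dystrophin, fell from 12.9 to 9.74 CPM with shEya3_KD1.

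Among intermediate filaments and partners of desmin 10 of 15 genes were tested. With shEya3_KD1, where 50.3% of all tested genes were called, 2 rose and 5 fell (median -0.19). With shEya3_KD2, where 45.3% were called, 4 rose and 1 fell (median 0.22). Without shEya3_KD2 replicate 2 the latter were 2 lower and a median of 0.14. Nes, nestin, an intermediate filament of progenitor cells that copolymerises with desmin, fell as Des did, from 474 ± 61.7 to 172 ± 18.8 and 255 ± 36.8 CPM. Vim, vimentin, rose from 2100 ± 17.3 to 3180 ± 145 and 2490 ± 119 CPM. Sync, syncoilin, which binds desmin, fell from 2.26 ± 0.328 to 0.0156 ± 0.027 CPM with shEya3_KD1 and was at 1.75 ± 0.379 CPM in shEya3_KD2 (adjusted p = 0.111 in edgeR). Cryab, the small heat shock protein that chaperones desmin, fell to 51.3 ± 3.82 CPM with shEya3_KD1 and rose to 99.3 ± 7.74 CPM with shEya3_KD2 from 68.4 ± 2.41 CPM.

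Genes were also ranked by the likeness of their pattern to each tested member, as Pearson's r of log2(CPM + 0.5) over the 9 libraries among 10658 tested genes with a named product (no Gm, Rik or pseudogene symbols) and at least 1 CPM in a group. These points fall into 3 groups, so r mostly reflects the group means and is a description only. Closest to Myf5 were Ctsl, Wfdc15a, Dffa, Efhc2 and Slc7a14 (r 0.995 to 0.996). Of these Efhc2 was nearest to an on-off pattern, at 4.89 CPM in SCR, 0 in shEya3_KD1 and 0.111 in shEya3_KD2. Kitl, Nlgn1, Ell2, Gpt and Btnl9 were closest to Des (r 0.991 to 0.994), and Kitl, the ligand of the Kit receptor, was at 74.8, 45.6 and 52.0 CPM in the 3 groups. Hook2, Pml, Mon1b and Trim12c were among the closest to Pax3 (0.988 to 0.994). Of these Pml, the scaffold of nuclear bodies, was at 94.8, 70.1 and 203 CPM in the 3 groups. Plekha5, Tor1aip2, Nr2c2 and Ube2d1 followed Mef2a (0.993 to 0.997), and Col5a1, Epb41l1, Setd7, Brd2 and Emc1 followed Mef2d (0.969 to 0.990). Hes1, a Notch target, Myh7, a slow myosin, Prkaa2, Dyrk1a and Wwtr1 followed Mef2c (0.961 to 0.983). An r above 0.95 was reached by 17 genes for Mef2c and for Mef2d, and by 236 to 269 for each of the other 4.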

How the data were processed

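RNA of 9 cultures was made into libraries with a NuGEN mRNA-Seq kit, per the labels' protocols. The deposited values are raw read counts per gene symbol. Per the submitters' processing notes, STAR, FastQC and MultiQC were used, with the mm10 build. How reads were assigned to genes, and whether by strand, is not given in the sources used here. Each column matched 1 sample. Library totals of 27758862 to 52691960 counts set the precision of low genes, with a floor of 3 counts over a group and exact 95% counting intervals.

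The test was run with edgeR 4.0.16 under R 4.3.3: filterByExpr (15914 genes kept), TMM factors, and 1 quasi-likelihood fit of all 9 libraries with group as the term, at a Benjamini-Hochberg adjusted p of 0.05. CPM used TMM-scaled library totals. Standard errors came from the fold change and its F statistic. P-values cover only the spread between these libraries. In simulated counts the fit recovered 83% of 1.5-fold changes for either hairpin against SCR and 87% between hairpins. Of the simulated calls, 7.61% (shEya3_KD1), 9.55% (shEya3_KD2) and 8.37% (between hairpins) were unchanged genes, more than the 0.05 threshold aims at. The simulation changed 100 genes at each of 2 fold sizes, far fewer than were called in the data. It fitted 2 groups at a time, unlike the main fit. All changed genes lay above 1 CPM in the reference group, so the recovery does not cover lower genes. Replicate pairs differed beyond sampling noise (chi-square over its degrees of freedom, 9.24 to 45.2).

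Exon lengths and coordinates are GENCODE M21 (mm10). Named genes were the members, Mef2b, Eya3, up to 4 called genes per list and comparison with at least 1 CPM and no overlap between libraries, and the 5 most alike genes per member; other genes, among them neighbours and genes given for their low or uncalled values, were chosen after their values were seen. Some genes this rule names are not reported here. The members and the 16 lists were chosen with earlier results of these data known. Alternatives were RLE factors, DESeq2 1.42.0, limma-voom (limma 3.58.1), other filters, only the groups compared, a replicate block, each library left out and, chosen after seeing the data, library totals without scaling factors.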

Additional observations from a re-analysis of the deposited data

Results flagged for a closer look

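For 2 members the fitted changes with the 2 hairpins had opposite signs and differed in the test of the difference itself, with 1 of the 2 changes called. For Pax3, shEya3_KD2 minus shEya3_KD1 came to 0.68 (log2). For Mef2c the same difference came to -0.46 (log2). Groups of 3 libraries are too small to look for single outlying samples.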

How the results depend on the processing

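The counts of members called stayed within 1.5 times under all 17 alternatives: 3 to 5 with shEya3_KD1, 5 to 6 with shEya3_KD2 and 3 between the hairpins. No member's called change reversed. Des and Mef2d stayed called against SCR under each alternative, as did Mef2a and Pax3 with shEya3_KD2. Myf5 stayed called under the 16 that test it, which it enters only through its SCR level. A minimum of 5 CPM in 3 libraries leaves it out. Of 287 recomputed member fold changes 18 crossed the threshold, all in Mef2c against SCR or Pax3 with shEya3_KD1. Beside the left-out libraries, the Mef2c call with shEya3_KD1 was lost without a filter (adjusted p = 0.0673) and with library totals (0.0553). With shEya3_KD2 Mef2c was called with RLE factors (0.0425), DESeq2 (0.0428), limma-voom (0.0427), the 5 CPM filter (0.0239) and library totals (0.0183), and its fold change was -0.13 without shEya3_KD2 replicate 3. The cause was not tested. Deviations from the group means correlated at -0.108 to 0.196 between same-numbered libraries and at -0.239 to 0.17 between the others. Such values cannot show whether same-numbered libraries were prepared together, and the labels give no batch. With the replicate block 5 members were called with shEya3_KD1 and 6 with shEya3_KD2, as Pax3 (adjusted p = 0.0488) and Mef2c (0.0453) passed. For the contractile genes, median changes of -0.26 and -0.33 became 0.46 and 0.40 over the 6 genes with 5 CPM, and 0.03 with shEya3_KD1 over 43 genes without a filter; DESeq2 called 4 lower with shEya3_KD1. For the MEF2 targets the shEya3_KD1 median became -0.15 over the 11 genes with 5 CPM, and 2 fell with shEya3_KD2 without a filter; DESeq2 and library totals each called 2 coactivators lower with shEya3_KD2. Without a filter Myf6, Myog and Pax7 were also tested and not called (adjusted p 0.35 to 1), on 8, 1 and 1 counts in all; Myod1 had none.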
